A study of Mus musculus and Homo sapiens with 176 samples.

Results

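Small nucleolar RNAs (snoRNAs) are short nuclear RNAs that guide the chemical modification of ribosomal and other RNAs, box C/D snoRNAs guiding ribose methylation and box H/ACA snoRNAs guiding pseudouridylation. In mammals most of them are cut from introns of longer host transcripts. The genes described here are 7 hosts whose spliced RNA is classed as noncoding, Snhg1, Snhg3, Snhg5, Snhg6, Snhg8, Snhg11 and Snhg12. They were taken by symbol from tables of 24854 features, with earlier results of these data known, and each of the 7 symbols named 1 feature. Hosts of this kind are usually transcribed in all cells, often start transcription within a run of pyrimidines opening with C, and several of their spliced RNAs are degraded by nonsense-mediated decay, a pathway that removes RNAs with early stop codons. Snhg11 is best known from brain, where it is used as a marker of neurons.

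RNA was sequenced from nuclei of prefrontal cortex and cerebellum of 1 mouse of the strain C57BL/6, aged 8 to 10 weeks. Sorting for NeuN, a nuclear protein of neurons that Rbfox3 encodes, split each region into NeuN+ and NeuN- nuclei, and 2 libraries were made from each of the 4 groups. The labels record no transgene, deletion or treatment for any group. With a single animal behind the 8 libraries, p-values measure only how libraries differ from each other, a spread that may be technical. The labels' protocol describes the handling of cerebellum only, and 114 mouse and 54 human cell line chromatin samples of the series were not analysed here. Levels are FPKM, in which fragments are divided by transcript length and by the mapped fragments of the library, multiplied by 1 scaling factor per library. A change is a difference of log2(scaled FPKM + 1) from limma, and it was called at a Benjamini-Hochberg adjusted p under 0.05 over the 14376 features that reached 1 FPKM in 2 or more libraries. All 7 host genes passed that filter.

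Depth is unknown in fragments and spanned 1.51-fold over the libraries in relative terms, and 11256 to 12494 features reached 1 FPKM. The prefrontal NeuN- libraries stood apart in their FPKM sums, 426851 and 414230 against 289350 to 307198 in the other libraries. Their scaling factors were the lowest, 0.878 and 0.896 against 1.03 to 1.05. Rbfox3 stood at 16.9 and 16.4 FPKM in prefrontal NeuN+, 12.5 and 11.1 in prefrontal NeuN-, then 128 and 123 in cerebellar NeuN+, with 34.7 and 35.7 in cerebellar NeuN-. All 6 astrocyte, all 6 oligodendrocyte and all 6 microglia markers were lower in prefrontal NeuN+ than in prefrontal NeuN-. In cerebellum the same held for 6 of 6 astrocyte and 6 of 6 oligodendrocyte markers and for 5 of 6 microglia markers. Of 8 general neuronal markers, 3 were higher, 4 lower and 1 not called in prefrontal NeuN+ against NeuN-, and 7 were higher and 1 lower in cerebellum, so messages of neurons were present in both NeuN- groups.

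The annotated start sites of the hosts are shown first because the pyrimidine run at the start is the sequence feature this gene class is known for. RefSeq promoters of GRCm38.p6 were matched by symbol for 6 of the 7 genes, all but Snhg6. Each window runs from 45 bases before the annotated start to 25 bases from it, in the direction of transcription. Capitals mark TATAAA on the gene's strand, its reverse complement TTTATA, or a run of at least 5 pyrimidines that opens with C within 10 bases of the start.
Snhg1: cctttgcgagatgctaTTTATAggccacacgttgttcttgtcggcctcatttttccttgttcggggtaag
Snhg3: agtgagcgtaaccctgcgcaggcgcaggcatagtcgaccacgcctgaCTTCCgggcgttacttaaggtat
Snhg5: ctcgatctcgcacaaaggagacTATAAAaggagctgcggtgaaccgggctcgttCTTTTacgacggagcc
Snhg8: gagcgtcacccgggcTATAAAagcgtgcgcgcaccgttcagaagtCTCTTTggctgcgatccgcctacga
Snhg11: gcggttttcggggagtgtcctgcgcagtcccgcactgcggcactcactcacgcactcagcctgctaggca
Snhg12: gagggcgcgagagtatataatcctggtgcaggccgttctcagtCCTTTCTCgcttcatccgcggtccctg
A pyrimidine run of this kind lies in the windows of Snhg3, Snhg5, Snhg8 and Snhg12, with 5, 5, 6 and 8 bases. In Snhg8 the run begins at the annotated first base itself. The search asked only that the base before the opening C was not another C. In Snhg5, Snhg8 and Snhg12 that base is T, so the marked run is part of a longer pyrimidine stretch. The same search found a run in 30.2% of the 32851 promoters of the table. TATAAA lies on the gene's strand in Snhg5, 23 bases before the start, and in Snhg8, 30 bases before it, and on the other strand in Snhg1. Among all promoters 2.14% hold it on the gene's strand and 2.72% on either strand, searched, as in the 6 genes, from 45 to 16 bases before the start. The Snhg11 window holds neither of the searched sequences. On GRCm38.p6 the windows are chr19:8723442-8723511 on the plus strand for Snhg1, chr4:132353662-132353731 on the minus strand for Snhg3, chr9:88522873-88522942 on the minus strand for Snhg5, chr3:123508312-123508381 on the minus strand for Snhg8, chr2:158375668-158375737 on the plus strand for Snhg11 and chr4:132308633-132308702 on the plus strand for Snhg12.

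Snhg11 was the most variable of the hosts and, in 6 of the 8 libraries, the most abundant. The feature spans chr2:158201374-158211881 on mm9, the build of the tables. It stood at 907 and 913 FPKM in prefrontal NeuN+, 19.7 and 20.6 in prefrontal NeuN-, then 452 and 463 in cerebellar NeuN+, with 335 and 335 in cerebellar NeuN-. The 4 groups did not overlap, and the spread between the 2 libraries of a group was at most 1.04-fold. By level it ranked 17th and 13th of all features in the prefrontal NeuN+ libraries and 3291st and 3245th in the prefrontal NeuN- libraries.

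In prefrontal cortex Snhg11 was 43.0-fold higher in NeuN+ than in NeuN- (log2 change 5.43 ± 0.04 SE, limma adjusted p = 1.5e-08). In cerebellum the same contrast gave 1.36-fold (log2 0.45 ± 0.04, limma adjusted p = 9.9e-05). The change across the gate was thus smaller in cerebellum by 4.98 on the log2 scale (95% interval -5.12 to -4.83, limma adjusted p = 1.8e-07). Between the regions, Snhg11 was 1.99-fold lower in cerebellar than in prefrontal NeuN+ nuclei (limma adjusted p = 2.1e-06). It was 15.9-fold higher in cerebellar than in prefrontal NeuN- nuclei (limma adjusted p = 6.8e-08). All 5 differences were called in the same direction under each of 18 alternative settings.

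Sums of cell type markers differed in whether they followed Snhg11, and their part in its levels was not tested. The 5 cortical projection neuron markers summed to 42.4 and 44.3 FPKM in prefrontal NeuN+ but 15.4 and 14.4 in prefrontal NeuN-. In cerebellum they summed to 4.98 and 5.04 in NeuN+ and 2.08 and 2.20 in NeuN-. The 5 inhibitory neuron markers summed to 856 to 940 FPKM in prefrontal NeuN+ and 1198 to 1295 in prefrontal NeuN-. In cerebellum they summed to 307 to 308 in NeuN+ and 470 to 480 in NeuN-. Sums weigh abundant markers most. Taken singly, 2 of the 5 were called higher in prefrontal NeuN+ than NeuN-, 1 lower and 2 not called (median log2 change 0.13). In the cerebellar gate 3 were called lower and 2 not called. Summed over the 5 granule cell markers, the level was 464 and 464 FPKM in cerebellar NeuN+ but 137 and 138 in cerebellar NeuN-, against 2.19 to 13.0 in prefrontal libraries, where Fat2 and Gabra6 were listed at 0 in both NeuN+ libraries. The 5 Purkinje cell markers summed to 482 to 491 FPKM in cerebellar NeuN+ and 497 to 526 in cerebellar NeuN-. Taken singly, 2 of these 5 were called higher in cerebellar NeuN+ than NeuN-, 1 lower and 2 not called. The 8 general neuronal markers summed to 1497 to 1507 FPKM in prefrontal NeuN+ and to 1861 to 1989 in prefrontal NeuN-, the group with the lowest Snhg11. None of those 8 markers was at 0 in any group. The 6 oligodendrocyte markers summed to 83.5 to 89.4 FPKM in prefrontal NeuN+, 1827 to 1839 in prefrontal NeuN-, 201 to 205 in cerebellar NeuN+ and 1537 to 1561 in cerebellar NeuN-. Microglia markers summed to 323 to 324 FPKM in prefrontal NeuN- and 27.7 to 29.1 in cerebellar NeuN-. In the same 2 groups oligodendrocyte precursor markers summed to 112 to 118 and 42.3 to 43.3, and astrocyte markers to 555 to 596 and 478 to 479. In bulk nuclei, fewer cells of a type and less RNA per cell cannot be told apart.

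**Figure D1:**
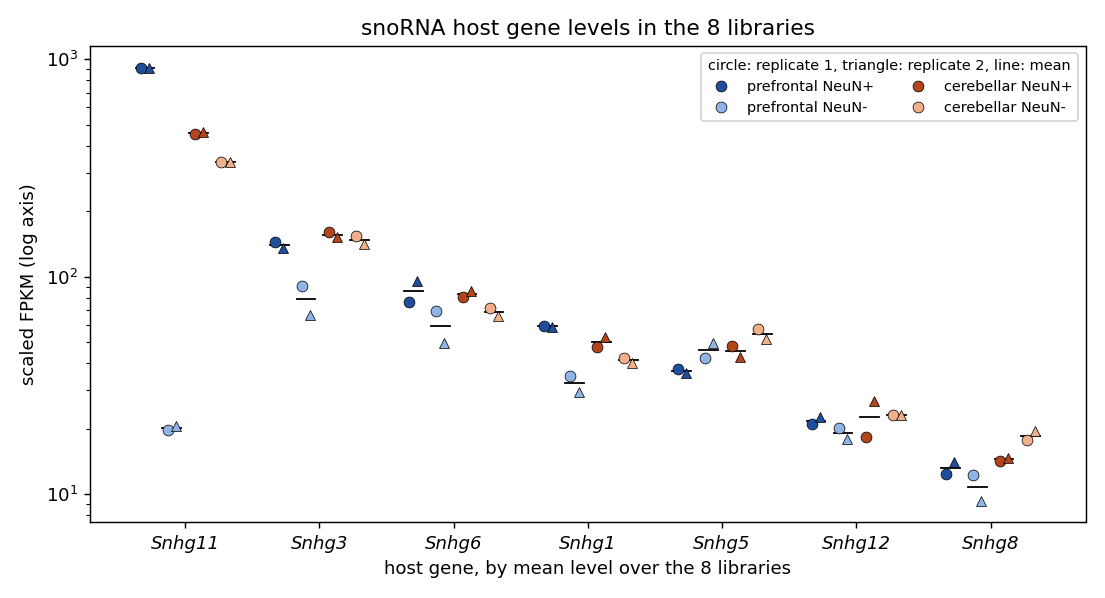
Level of each snoRNA host gene in scaled FPKM (log axis) in every library. Circles are replicate 1, triangles replicate 2, black lines group means and colours the 4 groups. Snhg11 runs from 19.7 to 913 FPKM, while the other 6 genes stay within 9.35 to 160.

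Among hosts of box C/D snoRNAs, Snhg1, the first of these hosts to be described, lies at chr19:8797977-8800816 on mm9. It stood at 59.3 and 58.8 FPKM in prefrontal NeuN+, 35.1 and 29.6 in prefrontal NeuN-, then 47.4 and 53.1 in cerebellar NeuN+, with 42.2 and 40.3 in cerebellar NeuN-. NeuN+ was above NeuN- in both regions with no overlap. The gate change was 1.81-fold in prefrontal cortex (log2 0.85 ± 0.09 SE, limma adjusted p = 1.7e-04) and 1.21-fold in cerebellum (log2 0.28 ± 0.09, limma adjusted p = 0.0300), and the cerebellar change was smaller by 0.58 (limma adjusted p = 0.00625). The prefrontal and cerebellar NeuN+ libraries, next to each other in the order of levels, did not differ at the threshold (log2 -0.23, 95% interval -0.45 to -0.01, limma adjusted p = 0.0514), whereas cerebellar NeuN- exceeded prefrontal NeuN- (log2 0.35 ± 0.09, limma adjusted p = 0.0106). The cerebellar gate change lost its call without cerebellar NeuN+ replicate 2 (log2 0.19), NeuN- replicate 1 (0.31) or NeuN- replicate 2 (0.24). The NeuN- difference between regions lost it without cerebellar NeuN- replicate 1 (0.31) and in unscaled FPKM (0.13).

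Snhg5, host of box C/D snoRNAs at chr9:88415891-88417735, went the other way across the gate. Its levels were 37.5 and 36.1 FPKM in prefrontal NeuN+, 42.1 and 49.6 in prefrontal NeuN-, then 47.9 and 42.8 in cerebellar NeuN+, with 57.4 and 51.9 in cerebellar NeuN-. Prefrontal NeuN+ was the lowest group and cerebellar NeuN- the highest, and the prefrontal NeuN- and cerebellar NeuN+ libraries overlapped. NeuN+ was 1.24-fold lower in prefrontal cortex (log2 -0.30 ± 0.10 SE, limma adjusted p = 0.0257) and 1.20-fold lower in cerebellum (log2 -0.26 ± 0.10, limma adjusted p = 0.0438). The difference between those changes was 0.04 (95% interval -0.29 to 0.37, limma adjusted p = 0.801). Cerebellum was above prefrontal cortex 1.22-fold in NeuN+ (limma adjusted p = 0.0283) and 1.19-fold in NeuN- (limma adjusted p = 0.0473). These 4 small changes kept their sign under the 18 alternatives, but each lost its call under 3 to 8 of them. The losses include, for the prefrontal gate, leaving out NeuN+ replicate 1 (log2 -0.33), NeuN+ replicate 2 (-0.28) or NeuN- replicate 2 (-0.19). For the cerebellar gate they include leaving out cerebellar NeuN+ replicate 2 (-0.18) or NeuN- replicate 1 (-0.19), or prefrontal NeuN+ replicate 1 or 2, with the change as above. For cerebellum against prefrontal cortex in NeuN+ they include leaving out prefrontal NeuN+ replicate 1 (0.32) or 2 (0.26) or cerebellar NeuN+ replicate 1 (0.21). For NeuN- they include leaving out prefrontal NeuN- replicate 1 (0.13), cerebellar NeuN- replicate 1 (0.18), or prefrontal NeuN+ replicate 1 or 2, with the change as above.

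Snhg6, which hosts the box C/D RNA Snord87, lies at chr1:9932106-9934199. It stood at 76.2 and 96.0 FPKM in prefrontal NeuN+, 69.5 and 49.5 in prefrontal NeuN-, then 81.0 and 85.7 in cerebellar NeuN+, with 71.7 and 66.3 in cerebellar NeuN-. The NeuN+ groups of the regions overlapped, as did the NeuN- groups, while NeuN+ was above NeuN- within each region. The prefrontal gate change was 1.45-fold (log2 0.54 ± 0.17 SE, limma adjusted p = 0.0267). It was not called without prefrontal NeuN+ replicate 2 (0.37), without prefrontal NeuN- replicate 2 (0.29) or in unscaled FPKM (0.30). The cerebellar gate change of 0.27 was not called (95% interval -0.14 to 0.68, limma adjusted p = 0.199), nor was the difference between the gate changes (-0.27, 95% interval -0.85 to 0.31, limma adjusted p = 0.355). Cerebellum against prefrontal cortex gave -0.04 in NeuN+ (95% interval -0.45 to 0.37) and 0.23 in NeuN- (-0.18 to 0.64), and neither was called. The NeuN- value depended on the scaling: it was 0.0068 in unscaled FPKM, but 0.53 with a common sum and 0.56 after quantile normalization, both called, and it was also called without prefrontal NeuN- replicate 1 (0.47).

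Among hosts of box H/ACA snoRNAs, Snhg3, at chr4:131907848-131909601, was second to Snhg11 in NeuN+ nuclei of both regions and in cerebellar NeuN- nuclei. Its levels were 145 and 136 FPKM in prefrontal NeuN+, 90.8 and 66.6 in prefrontal NeuN-, then 160 and 152 in cerebellar NeuN+, with 153 and 141 in cerebellar NeuN-. Prefrontal NeuN- stood apart below the other 3 groups, whose libraries lay side by side between 136 and 160. NeuN+ was 1.79-fold higher in prefrontal cortex (log2 0.84 ± 0.14 SE, limma adjusted p = 0.00139), and in cerebellum the change of 0.08 was not called (95% interval -0.24 to 0.41, limma adjusted p = 0.611). The cerebellar change was smaller by 0.76 (limma adjusted p = 0.0116), a call that was lost in unscaled FPKM (-0.52). Cerebellar NeuN- exceeded prefrontal NeuN- 1.88-fold (log2 0.91 ± 0.14, limma adjusted p = 7.7e-04), and the NeuN+ groups did not differ at the threshold (0.15, 95% interval -0.18 to 0.48).

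Snhg8, which hosts the box H/ACA RNA Snora24, lies at chr3:123210470-123211254 and was the lowest of the 7 genes. It stood at 12.3 and 14.0 FPKM in prefrontal NeuN+, 12.2 and 9.35 in prefrontal NeuN-, then 14.2 and 14.7 in cerebellar NeuN+, with 17.7 and 19.5 in cerebellar NeuN-. No groups overlapped, but prefrontal NeuN+ and NeuN- lay next to each other at 12.3 and 12.2 FPKM. Its order differed from that of Snhg1 and Snhg3 in that cerebellar NeuN- was the highest group. The prefrontal gate change of 0.28 was not called (95% interval -0.02 to 0.57, limma adjusted p = 0.0838), and the cerebellar one was 1.27-fold lower in NeuN+ (log2 -0.34 ± 0.12 SE, limma adjusted p = 0.0427). The prefrontal change was called with a common sum (0.47) and without prefrontal NeuN- replicate 1 (0.45). The difference between the 2 gate changes was -0.62 (limma adjusted p = 0.0177). Cerebellar NeuN- was 1.68-fold above prefrontal NeuN- (log2 0.74 ± 0.12, limma adjusted p = 0.00127), a call that held under each alternative. The cerebellar gate call was lost under 9 of 18 alternatives, among them leaving out cerebellar NeuN+ replicate 1 (-0.32) or 2 (-0.36), cerebellar NeuN- replicate 1 (-0.41) or 2 (-0.27), or prefrontal NeuN+ replicate 1 or 2. The difference between the gate changes lost its call in unscaled FPKM (-0.40) and without prefrontal NeuN+ replicate 2 (-0.53), cerebellar NeuN+ replicate 1 (-0.60) or cerebellar NeuN- replicate 2 (-0.55).

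Snhg12, which hosts Snora16a, Snora44, Snora61 and Snord99 and so both snoRNA classes, lies at chr4:131864593-131866939 and varied least. Its levels were 21.0 and 22.6 FPKM in prefrontal NeuN+, 20.2 and 18.0 in prefrontal NeuN-, then 18.4 and 26.7 in cerebellar NeuN+, with 23.2 and 23.1 in cerebellar NeuN-. The cerebellar NeuN+ libraries differed 1.45-fold from each other and spanned the values of all other libraries but 1. None of the 5 differences was called, with log2 changes of 0.19 in the prefrontal gate (95% interval -0.19 to 0.57) and -0.06 in the cerebellar gate (-0.44 to 0.32). Cerebellum against prefrontal cortex gave 0.02 in NeuN+ (-0.36 to 0.40) and 0.27 in NeuN- (-0.11 to 0.65). The NeuN- value was called with a common sum (0.56) and after quantile normalization (0.45), and was 0.053 in unscaled FPKM. These intervals leave room for changes of the size called for Snhg5. Without cerebellar NeuN+ replicate 2 the cerebellar gate change was -0.32 and called, and without replicate 1 it was 0.20 and not called.

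Counted over the 7 genes, 4 were higher in prefrontal NeuN+ than NeuN- (Snhg1, Snhg3, Snhg6 and Snhg11), Snhg5 was lower and 2 were not called. Of all 14376 features 72.6% were called in that comparison, 35.0% higher and 37.6% lower, so a call is the usual outcome there. In cerebellum Snhg1 and Snhg11 were higher in NeuN+, Snhg5 and Snhg8 were lower and 3 were not called, where 71.7% of all features were called, 32.4% higher and 39.2% lower. Cerebellum against prefrontal cortex in NeuN+ gave Snhg5 higher, Snhg11 lower and 5 not called, against 77.2% of features called, 36.5% higher and 40.7% lower. In NeuN- 5 of the 7 genes were higher in cerebellum, none was lower and 2 were not called, against 79.5% of features called, 40.5% higher and 39.0% lower. The median log2 change of the 7 genes was 0.54 in the prefrontal gate and 0.35 between the regions in NeuN-, beside -0.01 and 0.02 over all features, and it was 0.08 in the cerebellar gate and 0.02 between the regions in NeuN+, beside -0.04 and -0.03. The comparisons share groups: prefrontal NeuN- enters both of the comparisons with the larger medians, and it was the lowest group for every gene but Snhg5. Its libraries were also those with the largest FPKM sums and the lowest scaling factors. Summed over the 6 genes other than Snhg11, the level was 223 to 270 FPKM in the prefrontal NeuN- libraries and 342 to 375 in the other 6 libraries.

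**Figure D2:**
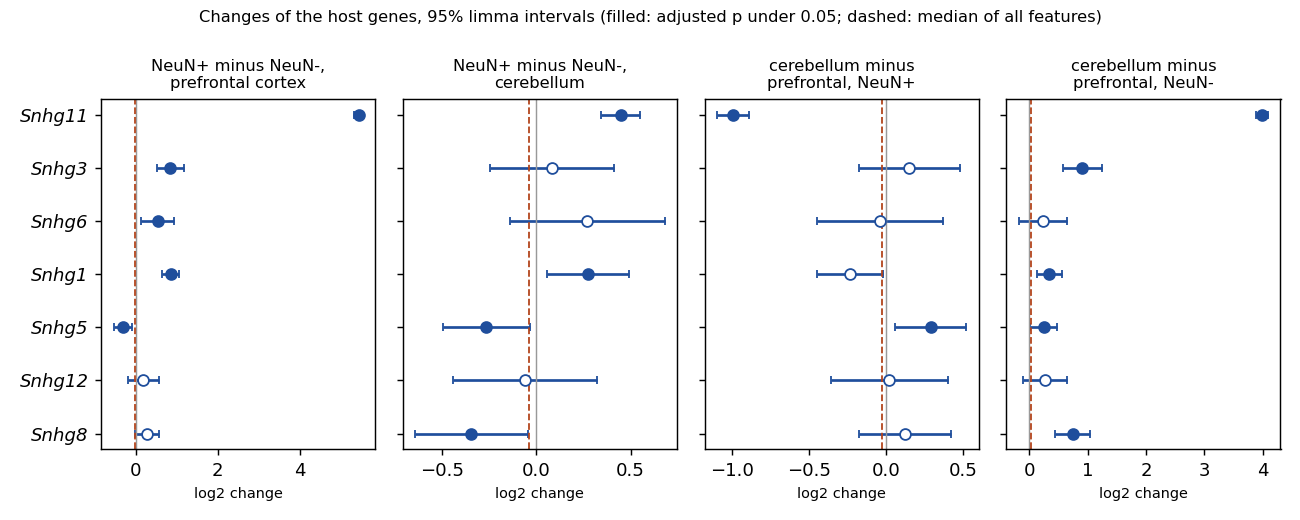
Log2 change of log2(scaled FPKM + 1) for each host gene in 4 comparisons, with 95% limma intervals. Filled points were called at an adjusted p under 0.05, the dashed line is the median of all features, and the axes differ in range. Snhg11 stands at 5.43 in the prefrontal gate and 3.99 between the regions in NeuN-, apart from the other 6 genes.

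The signed change from NeuN- to NeuN+ was lower in cerebellum than in prefrontal cortex for Snhg1, Snhg3, Snhg8 and Snhg11, higher for none, and not different at the threshold for Snhg5, Snhg6 and Snhg12. For Snhg1 and Snhg11 this was a smaller rise. Snhg3 rose in prefrontal cortex, and its cerebellar value of 0.08 was not called. Snhg8 fell in cerebellum (-0.34) and its prefrontal value of 0.28 was not called. The difference was called for 70.1% of all features, 33.1% with a higher and 37.0% with a lower signed change in cerebellum. In unscaled FPKM the only one of the 7 genes still called was Snhg11. Library scaling moved the whole distribution. The median log2 change of all features in the prefrontal gate was -0.01, and it was -0.19 in unscaled FPKM, 0.14 with a common sum and 0.06 after quantile normalization. Over the same 3 scalings the median moved from 0.02 to between -0.13 and 0.26 between the regions in NeuN-, from -0.06 to between -0.23 and 0.13 for the difference between the gate changes, and from -0.04 to at most 0.07 in the cerebellar gate. Of the called features in the prefrontal gate 48.2% were higher, and with those 3 scalings 36.0%, 59.9% and 54.2% were. Between the regions in NeuN- the share was 51.0%, against 42.6%, 62.1% and 52.7%, and for the difference between the gate changes it was 47.2%, against 57.6%, 37.7% and 51.3%. Taken relative to the median of all features, the prefrontal gate change over the 4 scalings was 0.81 to 0.93 for Snhg1, 0.80 to 1.06 for Snhg3, 0.49 to 0.70 for Snhg6, -0.34 to -0.19 for Snhg5 and 5.39 to 5.57 for Snhg11. In the same terms, the difference of the gate changes was -0.73 to -0.48 for Snhg1, -1.10 to -0.65 for Snhg3, -0.62 to -0.53 for Snhg8 and -5.31 to -4.88 for Snhg11.

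The 6 genes other than Snhg11 varied little over the groups compared with most features. The range was taken between the highest and lowest group mean of log2(scaled FPKM + 1) and is given as a fold. It was 1.20-fold for Snhg12, 1.45-fold for Snhg6, 1.47-fold for Snhg5, 1.68-fold for Snhg8, 1.81-fold for Snhg1 and 1.99-fold for Snhg3, and 43.0-fold for Snhg11. Over all kept features the median range was 2.45-fold. A smaller range than that of Snhg12 was found in 1.05% of kept features, smaller than that of Snhg3 in 31.9%, and smaller than that of Snhg11 in 98.9%. Snhg11 made up 72.1% and 71.6% of the summed FPKM of the 7 genes in prefrontal NeuN+ and 6.82% and 8.48% in prefrontal NeuN-. In cerebellum its share was 55.0% and 55.3% in NeuN+ and 47.8% and 49.5% in NeuN-.

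**Figure D3:**
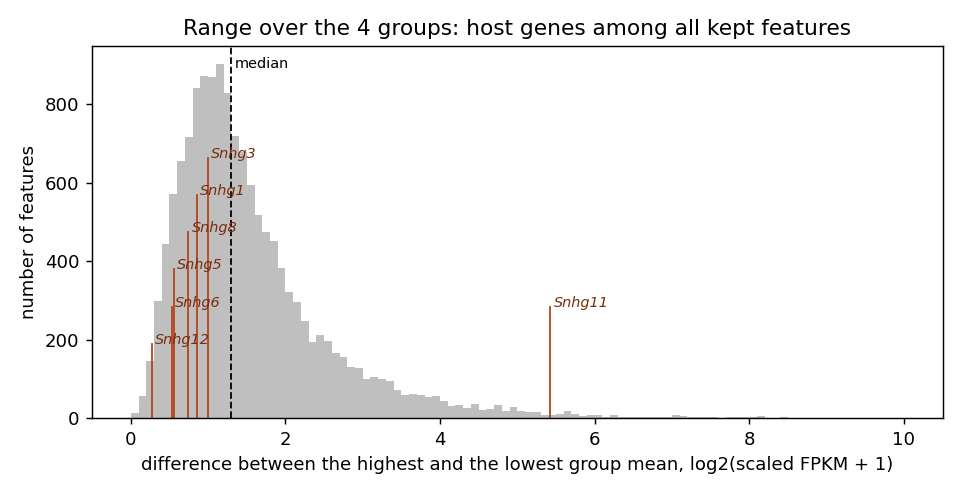
Number of features by the difference between their highest and lowest group mean of log2(scaled FPKM + 1), over 14376 kept features, with the 7 host genes marked by vertical lines whose heights carry no value. The dashed line is the median of all features; 6 genes lie to its left and Snhg11 far to its right.

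The Cufflinks confidence limits in the tables show how precisely each level was estimated within a library. Their width to either side of the FPKM was 0.769% to 4.05% for Snhg11 and 14.6% to 21.7% for Snhg8. For Snhg3, Snhg5, Snhg6, Snhg11 and Snhg12 the limits of the 2 libraries did not meet in 1 group each. There, replicates differed by more than the limits of a single library cover.

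The snoRNAs themselves could hardly be measured in these libraries. The tables hold 7 snoRNA features inside the 7 genes: Snord22 in Snhg1, Snord87 in Snhg6, Snora24 in Snhg8, and Snora16a, Snora44, Snora61 and Snord99 in Snhg12. Of their 56 values, 18 were listed at 0 and 21 were under 1 FPKM. Where both libraries of a group were above 0, they differed by a median of 1.43-fold, against 1.09-fold for the host genes. Snord22 was listed at 49.0 and 35.7 FPKM in prefrontal NeuN+, 0 and 37.9 in prefrontal NeuN-, then 157 and 113 in cerebellar NeuN+, with 74.4 and 51.9 in cerebellar NeuN-. It was thus highest in cerebellar NeuN+, while Snhg1 was highest in prefrontal NeuN+. Snord87 was listed at 0 in all 4 cerebellar libraries, where Snhg6 stood at 66.3 to 85.7. Features this short are estimated poorly from fragments, so no test was made on them.

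Protein-coding genes lay within 5000 bases of 5 of the 7 hosts. Slc3a2, which encodes the heavy chain of amino acid transporters, lies 117 bases from Snhg1 in the tables. It stood at 66.3 and 62.7 FPKM in prefrontal NeuN+, 87.0 and 90.4 in prefrontal NeuN-, then 48.8 and 47.2 in cerebellar NeuN+, with 67.7 and 67.2 in cerebellar NeuN-. Slc3a2 was lower in NeuN+ in both regions, by 0.45 and 0.48 on the log2 scale, where Snhg1 was higher. Mcmdc2, a gene of meiotic recombination 1070 bases from Snhg6, was higher in prefrontal NeuN+ (2.20-fold), as Snhg6 was. Phactr4, 2237 bases from Snhg3, was called lower there, where Snhg3 was higher, but its means of 0.178 FPKM in NeuN+ and 0.786 in NeuN- both lie under the pseudocount of 1. Prss12, a secreted protease gene 949 bases from Snhg8, stood at 6.55 to 13.1 FPKM in prefrontal libraries and was listed at 0 in all 4 cerebellar libraries, where Snhg8 was highest. Trnau1ap, a selenoprotein synthesis factor gene 738 bases from Snhg12, stood at 35.9 to 48.2 FPKM and, like Snhg12, was called in neither gate comparison. No feature lay within 5000 bases of Snhg5 or Snhg11, and no feature other than snoRNAs overlapped any of the 7 genes.

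Similarity of pattern was measured as the root mean square difference of log2 levels, each centred on its own mean, over the 8 libraries and 8948 candidate features. The nearest to Snhg11 were Meg3 (0.387), an imprinted noncoding RNA, Hook1 (0.469), a microtubule adaptor gene, and Grin1 (0.700), which encodes the obligate NMDA receptor subunit. Meg3 had group means of 501 FPKM in prefrontal NeuN+, 10.5 in prefrontal NeuN-, 472 in cerebellar NeuN+ and 195 in cerebellar NeuN-. Meg3, Hook1 and Grin1 each overlap other features of the tables, and no source used here says whether counting used strand, so their values are uncertain. For the other genes the distances were much smaller, since their levels vary little. Sptlc1, Whsc1 and Gprasp1 were nearest to Snhg1, Fastkd1, Nhlrc2 and Xylt2 to Snhg3, Faap100, Nek7 and Hdac1 to Snhg5, Timm9, Npdc1 and Rpl31-ps12 to Snhg6, Vmn1r65, Fam168a and Ncoa1 to Snhg8, and Tprgl, Toe1 and Thoc6 to Snhg12. Among the 7 genes the closest pair was Snhg1 and Snhg6 (0.156) and the most distant was Snhg5 and Snhg11 (2.13).

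Other noncoding hosts were read from a list of 13 symbols, of which 10 are in the tables and 9 passed the filter. In the prefrontal gate 6 of the 9 were higher in NeuN+, 1 was lower and 2 were not called. Dancr, a host of Snora26 named for its role in keeping progenitor cells undifferentiated, was at 23.4 ± 0.184 FPKM (SD, n = 2) in NeuN+ and 12.8 ± 0.105 in NeuN-, 1.78-fold higher. Snhg14, named for the host transcript of the Prader-Willi and Angelman syndrome locus, was the exception. It was at 1.74 ± 0.440 against 9.96 ± 1.07 FPKM, 4.01-fold lower with the pseudocount of 1. The Snhg14 feature spans only 4855 bases and Snord64 lies 4379 bases outside it, so the values are those of that stretch. In the cerebellar gate 2 were higher, 3 lower and 4 not called. Gas5, a host whose spliced RNA accumulates when growth stops, was 2.18-fold lower in cerebellar NeuN+, at 27.5 ± 0.640 against 61.0 ± 0.736 FPKM, while its prefrontal groups stood at 76.3 ± 1.79 and 75.2 ± 0.227. Snhg20 reached 557 to 1107 FPKM and exceeded Snhg11 in 6 libraries, but a miRNA feature, Mir6516, lies within it. Between the regions, 3 were higher in cerebellum, 3 lower and 3 not called in NeuN+, and 7 were higher, 1 lower and 1 not called in NeuN-. The signed gate change was lower in cerebellum for 6, among them Gas5 with its cerebellar fall, higher for 1 and not different at the threshold for 2. The 1 was Snhg14, whose fall was smaller in cerebellum (2.57-fold against 4.01-fold), a difference that was not called with a common sum. The list's median log2 change was 0.55 in the prefrontal gate and -0.04 in the cerebellar gate, beside -0.01 and -0.04 over all features. Of all features 35.0% were called higher and 37.6% lower in the prefrontal gate, and 32.4% and 39.2% in the cerebellar gate. Between the regions the shares were 36.5% and 40.7% in NeuN+ and 40.5% and 39.0% in NeuN-. The signed gate change was higher in cerebellum for 33.1% and lower for 37.0%. In the prefrontal gate the list's counts were 5 higher and 2 lower in unscaled FPKM, and 8 higher and 1 lower with a common sum and after quantile normalization.

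**Figure D4:**
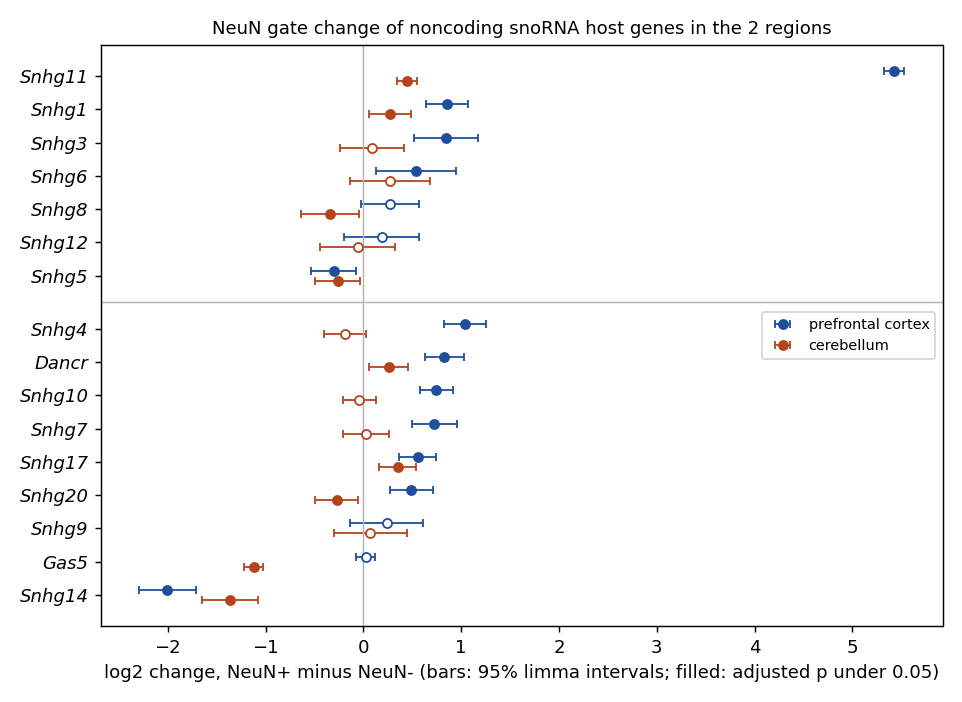
Log2 change from NeuN- to NeuN+ in prefrontal cortex (blue) and cerebellum (red) for the 7 host genes (top) and the 9 other noncoding hosts that passed the filter (bottom), with 95% limma intervals and filled points where called. Snhg11 lies at 5.43 and 0.45, and Snhg14 is below 0 in both regions.

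Protein-coding genes that carry snoRNAs in their introns, most of them genes of ribosomal proteins and translation factors, were mixed in direction. Of 33 such genes, 5 were higher in prefrontal NeuN+, 19 lower and 9 not called, and in cerebellum 14 were higher, 8 lower and 11 not called, with median log2 changes of -0.28 and 0.15 beside -0.01 and -0.04 over all features. A call in either direction was thus about as frequent as over all features, of which 72.6% were called in the prefrontal and 71.7% in the cerebellar gate. The prefrontal counts moved with the scaling, to 2 higher and 23 lower in unscaled FPKM, 11 and 13 with a common sum, and 9 and 14 after quantile normalization. Gnl3, which encodes the nucleolar protein nucleostemin, was highest in prefrontal NeuN+ at 83.4 ± 0.927 FPKM, against 19.0 ± 0.503 in NeuN- (4.22-fold). Tpt1, which encodes the translationally controlled tumor protein, was 1.81-fold lower in prefrontal NeuN+. Between the regions, 21 were higher in cerebellum, 8 lower and 4 not called in NeuN+, and 13, 12 and 8 in NeuN-, where the scalings gave from 7 higher and 16 lower (unscaled) to 21 higher and 6 lower (quantile). Rpl13a, a gene of the large ribosomal subunit, was 3.14-fold higher in cerebellar NeuN+ and Hspa8, a chaperone gene, 2.71-fold lower. Over all features 36.5% were called higher and 40.7% lower between the regions in NeuN+, and 40.5% and 39.0% in NeuN-. The signed gate change was higher in cerebellum for 23 of the 33, lower for 4 and not different at the threshold for 6. Those counts were 24 higher and 3 lower in unscaled FPKM, 18 and 7 with a common sum, and 18 and 5 after quantile normalization. Over all features 33.1% had a higher and 37.0% a lower signed change.

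Genes for the proteins that bind and assemble snoRNAs were measured for 17 symbols, of which 16 passed the filter. In the prefrontal gate 4 were higher, 5 lower and 7 not called, and in the cerebellar gate 9 were higher, 2 lower and 5 not called, with median log2 changes of -0.09 and 0.26 beside -0.01 and -0.04 over all features. Over all features 72.6% were called in the prefrontal gate, 35.0% higher and 37.6% lower, and 71.7% in the cerebellar gate, 32.4% higher and 39.2% lower. In the prefrontal gate the scalings gave from 3 higher and 10 lower (unscaled) to 5 higher and 2 lower (common sum), so the list has no stable direction there. Nop58, a core protein of box C/D particles, was higher in NeuN+ in prefrontal cortex (1.47-fold) and in cerebellum (1.40-fold). Dkc1, the pseudouridine synthase of box H/ACA particles, was 1.60-fold higher in cerebellar NeuN+, at 26.7 ± 0.478 against 16.3 ± 0.403 FPKM. Fbl, which encodes the methyltransferase fibrillarin of box C/D particles, was 1.80-fold lower in cerebellar NeuN+. Nhp2, a core protein of box H/ACA particles, was 1.86-fold lower in prefrontal NeuN+. Dkc1 overlaps Mpp1 in the tables, Nhp2 overlaps Rmnd5b and Gnl3 overlaps Glt8d1, which leaves their values uncertain, while Rpl13a overlaps snoRNA features and a miRNA feature, Mir5121. Between the regions, 4 of the 16 were higher in cerebellum, 7 lower and 5 not called in NeuN+. In NeuN- the counts were 5, 10 and 1. Over all features 36.5% were higher and 40.7% lower in NeuN+, and 40.5% and 39.0% in NeuN-. The NeuN- counts were 2 higher and 10 lower in unscaled FPKM, 5 and 6 with a common sum, and 5 and 8 after quantile normalization. The signed gate change was higher in cerebellum for 9, lower for 1 and not different at the threshold for 6. Over all features 33.1% had a higher and 37.0% a lower signed change. The list's counts were 9 higher and 0 lower in unscaled FPKM, 5 and 3 with a common sum, and 5 and 0 after quantile normalization.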

How the data were processed

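The 8 deposited tables hold gene-level FPKM with confidence limits and a status, in the layout of Cufflinks, per the file headers. Tools in the submitters' processing notes are Trim Galore 0.3.7, Bowtie 1.1.1, TopHat2 2.1.1, Bismark, Cufflinks with the builds hg19 and mm9, without roles. Not given in the sources used here are the Cufflinks version, the annotation and whether strand was used.

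Groups and replicate numbers came from sample titles. FPKM were multiplied by median-of-ratios factors over 9109 features (0.878 to 1.05). The 14376 features that reached 1 FPKM in 2 or more libraries entered the fit of log2(scaled FPKM + 1) by limma 3.58.1 (R 4.3.3), with the trend on and 4 residual degrees of freedom, after the script was tested on simulated data. The pseudocount of 1 understates changes of low genes. Whole fragments could not be recovered (41.8% to 47.8% of implied numbers under 20 lay within 0.05 of whole), so no count test was run. No values were identical between replicates (Spearman 0.973 to 0.981). Of all values, 14 had a status other than OK, and an exact 0 can be a failed estimate.

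The 7 genes and all lists were chosen with earlier results of these data known. Besides the 7, the text names at most 4 genes per list and comparison (largest called change, at least 5 FPKM in the higher group), the 3 features most alike per gene, neighbours within 5000 bases and Rbfox3; Snhg20's comparison with Snhg11 was chosen after its values were seen. Promoters came from RefSeq (GRCm38.p6), matched by symbol. Coordinates on mm9 are those of the tables with 1 added to the start. Alternatives covered scaling, pseudocount, filter, status, variance trend, a replicate block and leaving out each library.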

Additional observations from a re-analysis of the deposited data

Results flagged for a closer look

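The NeuN+ against NeuN- change differed between cerebellum and prefrontal cortex for 4 of the 7 host genes, by the limma test of that difference. The cerebellar change minus the prefrontal change was -4.98 for Snhg11, -0.76 for Snhg3, -0.62 for Snhg8 and -0.58 for Snhg1 on the log2 scale. For Snhg11 both changes were upward (5.43 and 0.45), and for Snhg8 the cerebellar change was downward (-0.34) and the prefrontal one not called (0.28). In unscaled FPKM the differences of Snhg1 (-0.35), Snhg3 (-0.52) and Snhg8 (-0.40) were not called, and that of Snhg8 was also lost without prefrontal NeuN+ replicate 2 (-0.53), cerebellar NeuN+ replicate 1 (-0.60) or cerebellar NeuN- replicate 2 (-0.55). This difference was called for 70.1% of all features.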

How the results depend on the processing

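Of the 35 changes (7 genes in 5 comparisons) 20 were called, 9 of these kept their call under all 18 alternatives, 11 lost it under at least 1, and none changed sign. The 9 are the 5 of Snhg11, the prefrontal gate changes of Snhg1 and Snhg3, and the differences of Snhg3 and Snhg8 between the regions in NeuN-. Of the 15 not called, 7 gained a call under at least 1 alternative. Between the regions in NeuN- 3 of the 7 genes were called in unscaled FPKM and all 7 with a common sum and after quantile normalization, against 5. For the difference between the gate changes 1 was called in unscaled FPKM. In the cerebellar gate 2 genes were called with no filter and 2 with the replicate block. Leaving out a library gave 3 to 6 called genes in the prefrontal gate, 1 to 4 in the cerebellar gate, 1 to 3 between the regions in NeuN+ and 3 to 6 in NeuN-. A group reduced to 1 library is assumed there to vary like the others.

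Signs turned only among changes that were not called. Snhg12 in the prefrontal gate was -0.041 in unscaled FPKM. With a common sum and after quantile normalization, Snhg6 between the regions in NeuN+ was 0.049 and 0.059, and the Snhg5 difference between the gate changes was -0.17 and -0.13. Over the libraries left out, the Snhg5 difference ran from -0.075 to 0.16, that of Snhg12 from -0.50 to 0.014, Snhg12 in the cerebellar gate from -0.32 to 0.20 and between the regions in NeuN+ from -0.23 to 0.28, and Snhg6 from -0.20 to 0.13 in NeuN+ and from -0.012 to 0.47 in NeuN-.

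Samples with the same replicate number did not deviate together (r -0.05 to 0.03 between groups). What the numbers stand for is not given, so this check cannot exclude that they pair the samples. The replicate block took the calls of Snhg5 and Snhg8 in the cerebellar gate (log2 -0.26 and -0.34) and of Snhg5 between the regions in NeuN- (0.25), and changed no other call of the 7 genes. With 2 libraries per group from 1 mouse, called changes that lost their call under some setting ran from 1.19-fold to 1.69-fold, and depth in fragments is unknown.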

Other observations

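Genes of nonsense-mediated decay were read from a list of 10 symbols, of which 9 passed the filter. In prefrontal NeuN+ against NeuN- 5 were higher, 2 lower and 2 not called, and in cerebellum 7 were higher, none was lower and 2 were not called, with median log2 changes of 0.29 and 0.59 beside -0.01 and -0.04 over all features; in unscaled FPKM the prefrontal counts were 4 higher and 3 lower. Between the regions 8 of the 9 were higher in cerebellum and 1 was not called in NeuN+, and 7 were higher and 2 lower in NeuN-. Of all features 77.2% were called between the regions in NeuN+, 36.5% higher, and 79.5% in NeuN-, 40.5% higher, while 72.6% were called in the prefrontal gate, 35.0% higher, and 71.7% in the cerebellar gate, 32.4% higher. Upf3b, which links the decay machinery to exon junctions, stood at 28.8 ± 0.405 FPKM (SD, n = 2) in prefrontal NeuN+, 47.4 ± 1.02 in prefrontal NeuN-, then 194 ± 1.66 in cerebellar NeuN+, with 112 ± 0.770 in cerebellar NeuN-. It was 6.55-fold higher in cerebellar than in prefrontal NeuN+ nuclei (limma adjusted p = 5.3e-08). Smg1, the kinase that phosphorylates Upf1, was 3.18-fold higher in the same comparison.

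Scarna13, inside Snhg10, was above 0 in all 8 libraries. A miRNA feature, Mir3069, begins at the same base and lies within both, listed at 2.4e-05 to 158 FPKM, which leaves the values of Scarna13 uncertain. Scarna13 stood at 75.9 and 90.5 FPKM in prefrontal NeuN+, 28.5 and 39.8 in prefrontal NeuN-, then 34.4 and 24.8 in cerebellar NeuN+, with 14.4 and 8.94 in cerebellar NeuN-. Snhg10 itself stood at 72.6 ± 1.92, 43.0 ± 3.47, 63.9 ± 1.08 and 66.0 ± 4.28 FPKM in the same order of groups. Scarna13 was named after its values were seen, and no test was made on it.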
